A study of Bos taurus with 10 samples.

Results

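Polycomb repressive complexes are chromatin regulators that keep developmental genes silent. Polycomb repressive complex 2 (PRC2) methylates lysine 27 of histone H3, with EZH1 or EZH2 as the enzyme and EED and SUZ12 as its obligate partners. Polycomb repressive complex 1 (PRC1) ubiquitinates histone H2A through the E3 ligases RING1 and RNF2, each bound to a PCGF protein that sets the kind of complex. In early mammalian embryos both complexes act on the genes of lineages that a cell has not taken. Described here are 10 genes chosen by symbol, all 10 of which were present among the 20112 genes of the table. They are the PRC2 core genes *EZH1*, *EZH2*, *EED* and *SUZ12*, the PRC2 accessory gene *JARID2*, the PRC1 ligase genes *RING1* and *RNF2*, the PCGF genes *BMI1* and *PCGF6*, and the CBX gene *CBX7*. The rule used no measured value of these genes, but they were chosen with earlier results of these data known.

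The libraries came from single in vitro produced bovine (*Bos taurus*) early blastocysts, 5 WT and 5 *SOX2* KO. Zygotes of the WT group were injected with BE3 mRNA alone, which encodes a cytosine base editor, and those of the *SOX2* KO group with BE3 mRNA and a mixture of *SOX2* sgRNAs that install premature stop codons. The labels put all embryos at 7.0 days after fertilization, while the methods of the study give a slightly later collection day. Each library holds the polyadenylated RNA of a whole embryo, with trophectoderm and inner cell mass together, so fewer cells of a type and less RNA per cell cannot be told apart. Base editing in a zygote can leave mosaic embryos, and the read counts do not show the edited bases. The study genotyped the sequenced blastocysts from part of their cDNA, and reported mosaicism in few of its *SOX2*-targeted embryos.

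Reads on genes ranged from 2223670 to 5134855 in WT embryos against 2578284 to 4337342 in *SOX2* KO embryos. The 18S ribosomal RNA gene *RN18S1* took 26.4% to 37.0% of them in WT embryos against 32.5% to 45.0% in *SOX2* KO embryos. *SOX2* transcripts, which a stop codon need not remove, lay between 56.5 and 93.4 normalized read counts in WT embryos against 26.4 to 82.1 in *SOX2* KO embryos, so this gene does not separate the groups (limma adjusted p = 0.167). The summed level of 12 epiblast marker genes was 2973 to 3507 in WT embryos against 1433 to 1859 in *SOX2* KO embryos, and 8 of the 12 fell at an adjusted p of at most 0.05. The 14 trophectoderm markers summed to 27670 to 41308 and to 39308 to 53591, with 4 higher and 1 lower. *KRT8* and *KRT18* made up most of this sum (limma adjusted p = 0.352 and 0.0394). The 11 primitive endoderm markers summed to 9414 to 16746 and to 5278 to 8002, with 4 lower and 1 higher. Most of that sum was *FN1*, and the other 10 summed to 1700 to 2124 in WT embryos against 1936 to 2146 in *SOX2* KO embryos. The 7 cumulus and granulosa markers, a check for maternal cells, summed to at most 62.2 in WT and 70.0 in *SOX2* KO embryos. The part of cell composition in the results below was not tested. A fit with the *RN18S1* share as a covariate is given below. That share and the group are partly tied, so their parts cannot be told apart in it.

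Expression of the 10 Polycomb genes was compared between the groups with limma on log2(normalized read count + 1), fitted over 20056 genes, those averaging at least 1 over all embryos. A normalized read count is the number of reads on a gene over its embryo's DESeq2 size factor. The added 1 shrinks the log2 fold change where reads are few. Such a count does not account for gene length, so levels are compared between embryos and not between genes. Calls needed an adjusted p (Benjamini-Hochberg) not above 0.05 and a change of 2-fold or more in either direction. None of the 10 genes was called by limma, against 10.1% of all tested genes (8.93% higher and 1.16% lower in *SOX2* KO embryos), and DESeq2 and edgeR also called 0. Of all called genes 88.5% were higher in *SOX2* KO embryos, and 58.5% after quantile normalization. The adjusted p alone was passed by 1 of the 10 genes, *JARID2*, against 13.6% of all tested genes, so the number of changed Polycomb genes was near the background. An unadjusted p under 0.05 was reached by 4 of the 10 genes, *JARID2*, *SUZ12*, *BMI1* and *CBX7*, beside 32.4% of all tested genes. Over the 10 genes the median log2 fold change was -0.050, beside 0.25 over all tested genes, of which 62.9% had a positive value, and -0.11 over the 4548 well expressed genes, those averaging at least 100.

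**Figure D1:**
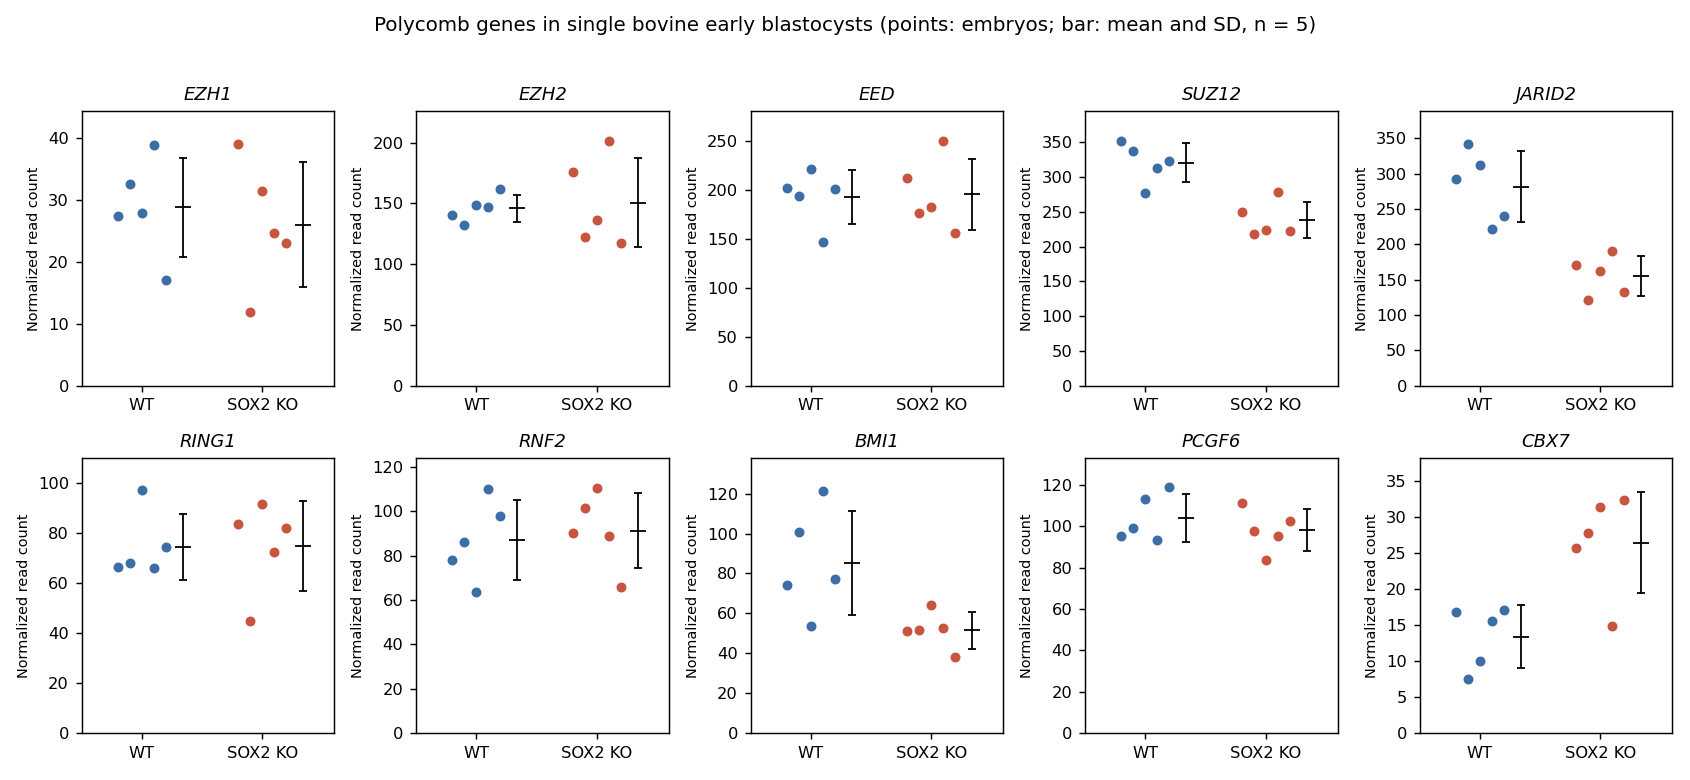
Normalized read counts (vertical axes, each from 0) of the 10 Polycomb genes in the 5 WT (blue) and 5 SOX2 KO (red) embryos, 1 point per embryo, with the mean and SD as black bars. Only in the panel of *JARID2* do the groups not overlap, with WT embryos from 222 to 343 and SOX2 KO embryos from 121 to 191.

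*JARID2*, whose product recruits PRC2 to chromatin and stimulates its activity, fell in *SOX2* KO embryos. In the WT embryos nc1 to nc5 it had normalized read counts of 292, 343, 312, 222 and 241, and in the *SOX2* KO embryos ko1 to ko5 of 170, 121, 163, 191 and 133. Every WT embryo was above every *SOX2* KO embryo, as for 9.17% of all tested genes. The mean went from 282 ± 49.9 (SD, n = 5) to 156 ± 28.5 (SD, n = 5), which is 55.2% of the WT mean. The log2 fold change was -0.85 (standard error 0.17, 95% interval -1.22 to -0.49, limma adjusted p = 0.00442), short of the 2-fold threshold. At an adjusted p of 0.05, 8.16% of the 4548 well expressed genes fell. *JARID2* kept its adjusted p at or below 0.0179 in all 10 fits that left out 1 embryo. It no longer passed with the *RN18S1* share of each embryo as a covariate (log2 fold change -0.81, limma adjusted p = 0.0829), a fit in which the genes past the adjusted p dropped from 2722 to 253 of 20056.

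Of the 4 core genes of PRC2, none passed the adjusted p. *EZH2*, the main methyltransferase of dividing cells, had normalized read counts of 140, 132, 149, 147 and 162 in WT and of 176, 123, 136, 201 and 118 in *SOX2* KO embryos. The *SOX2* KO embryos lay on both sides of the WT range, ko1 and ko4 above it and ko2 and ko5 below. The log2 fold change of *EZH2* was 0.016 (standard error 0.18, limma adjusted p = 0.963), and its 95% interval of -0.35 to 0.39 leaves out a 2-fold change in either direction. *EED*, the subunit that binds trimethylated lysine 27, had 202, 194, 222, 148 and 202 in WT and 213, 177, 183, 251 and 157 in *SOX2* KO embryos, with overlapping groups and the highest value in ko4. Its log2 fold change was 0.011 (95% interval -0.34 to 0.37, limma adjusted p = 0.972). For *EZH2* and *EED* the sign turned with some scalings and with single embryos left out, so neither has a direction.

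*SUZ12*, the scaffold of the complex, had 352, 337, 277, 312 and 323 in WT and 249, 218, 223, 278 and 223 in *SOX2* KO embryos. The groups met at a single point, the highest *SOX2* KO embryo at 277.65 against the lowest WT embryo at 277.43. The mean was 320 ± 28.2 in WT and 238 ± 25.3 in *SOX2* KO embryos (SD, n = 5 each), 74.3% of the WT mean. The log2 fold change of -0.43 (95% interval -0.73 to -0.13) had a limma adjusted p of 0.0543. DESeq2 and edgeR on the recovered reads gave adjusted p of 0.0281 and 0.0383. Without the *SOX2* KO embryo ko4 the limma adjusted p of *SUZ12* was 0.0230, and without the WT embryo nc3 it was 0.0355. It did not pass in the other 8 fits with an embryo left out (up to 0.121), with the *RN18S1* covariate (0.429), with quantile normalization (0.103) or when scaled by well expressed genes (0.104). *EZH1*, the second methyltransferase, ranged from 17.1 to 38.9 in WT embryos against 11.9 to 39.0 in *SOX2* KO embryos. It rested on 9 to 50 reads per embryo, and its 95% interval of -0.89 to 0.51 is too wide to tell a moderate fall from a moderate rise (limma adjusted p = 0.725).

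In PRC1, no difference was detected for both E3 ligase genes, *RING1* and *RNF2*. *RING1* ranged from 66.0 to 97.4 in WT embryos against 44.9 to 91.9 in *SOX2* KO embryos, with a log2 fold change of -0.017 (95% interval -0.47 to 0.44, limma adjusted p = 0.968). *RNF2*, the ligase that early mouse development depends on, ranged from 63.6 to 110 and from 65.7 to 110, with a log2 fold change of 0.071 (95% interval -0.35 to 0.49, limma adjusted p = 0.841). Both intervals leave out a 2-fold change, and the sign of both genes turned with the scaling. *PCGF6*, which defines a variant PRC1 with germline genes among its targets, ranged from 93.2 to 119 in WT embryos against 83.7 to 111 in *SOX2* KO embryos. On the log2 scale its fold change was -0.084 (95% interval -0.44 to 0.28, limma adjusted p = 0.770), and it turned to 0.018 when embryos were scaled by well expressed genes.

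*BMI1*, the PCGF protein of canonical PRC1 that also restrains the *CDKN2A* locus, was lower in *SOX2* KO embryos without passing the test. Its normalized read counts were 74.0, 101, 53.7, 121 and 77.3 in WT and 51.2, 51.5, 64.0, 52.6 and 38.1 in *SOX2* KO embryos. The overlap came from the WT embryo nc3, the lowest of its group, which lay below ko3. The mean was 85.4 ± 26.1 in WT and 51.5 ± 9.18 in *SOX2* KO embryos (SD, n = 5 each), 60.2% of the WT mean. The log2 fold change was -0.68 (95% interval -1.17 to -0.20, limma adjusted p = 0.0549). DESeq2 and edgeR gave adjusted p of 0.0383 and 0.0304, and the limma adjusted p was 0.0202 without nc3 and 0.0474 without ko4. It was 0.149 without nc4 and 0.514 with the *RN18S1* covariate.

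*CBX7*, a chromodomain protein that reads trimethylated lysine 27 for canonical PRC1, had the largest positive log2 fold change of the 10 genes, which did not pass the test. It had 16.8, 7.42, 9.94, 15.5 and 17.1 in WT and 25.6, 27.7, 31.4, 14.8 and 32.3 in *SOX2* KO embryos. All *SOX2* KO embryos but ko4 were above the highest WT embryo. The values rest on 5 to 29 reads per WT embryo and 18 to 28 reads per *SOX2* KO embryo. The means of 13.4 ± 4.41 and 26.4 ± 7.02 (SD, n = 5 each) gave a log2 fold change of 0.95 (95% interval 0.21 to 1.69, limma adjusted p = 0.0771). Without ko4 it was 1.13 with a limma adjusted p of 0.0282, and *CBX7* was then called. Of the 6786 genes averaging 10 to under 100, 8.12% rose at the adjusted p, beside 10.4% of all tested genes.

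Among the *SOX2* KO embryos, ko4 had the highest value of 4 of the 10 genes, *EZH2*, *EED*, *SUZ12* and *JARID2*, and the lowest of *CBX7*. Embryo ko5 had the lowest value of 4 genes, *EZH2*, *EED*, *RNF2* and *BMI1*, and ko2 that of another 4, *EZH1*, *SUZ12*, *JARID2* and *RING1*. The *RN18S1* share was 32.5% in ko4, the lowest of its group, and 45.0% in ko5, the highest. *EZH2* varied more between *SOX2* KO embryos, with a coefficient of variation of 24.1%, than between WT embryos, with 7.68%. Counting alone gives 8.36% and 7.51%. In contrast, *RNF2*, *BMI1*, *PCGF6* and *CBX7* varied less between *SOX2* KO than between WT embryos, *BMI1* with 17.8% against 30.5%. These differences in spread were not tested. Leaving out ko4 raised the number of the 10 genes past the adjusted p from 1 to 4, and leaving out nc3 raised it to 3. The share of all tested genes past it went from 13.6% to 22.5% without ko4 and 15.8% without nc3.

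**Figure D2:**
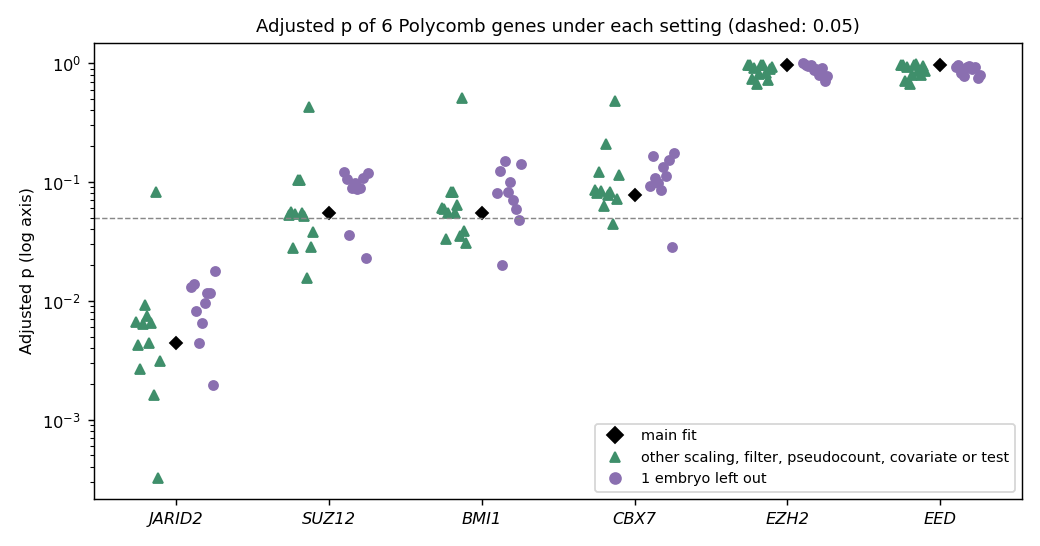
Adjusted p (vertical axis, log scale) of 6 of the 10 genes in the main limma fit (black diamond), with other scalings, filters, pseudocounts, a covariate, sample weights or count tests (green triangles) and with each embryo left out (purple circles). *JARID2* stays under the dashed line at 0.05 in all fits but the one with the RN18S1 covariate (0.0829), SUZ12, BMI1 and CBX7 lie on both sides of it, and EZH2 and EED stay far above it.

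Whether genes of the same role shifted against each other was asked with ratios inside each embryo, in which the size factor all but cancels. For 3 pairs, the mean log2 ratio was compared by a two-sided exact permutation test over embryos. The ratio of *EZH2* to *EZH1* was 2.35 ± 0.51 (SD, n = 5) in WT embryos and 2.55 ± 0.53 (SD, n = 5) in *SOX2* KO embryos (exact permutation p = 0.563, 0.794 after Benjamini-Hochberg adjustment over 3 pairs). That of *RNF2* to *RING1* was 0.21 ± 0.50 and 0.30 ± 0.54 (SD, n = 5 each, exact permutation p = 0.794, adjusted 0.794). That of *BMI1* to *PCGF6* was -0.33 ± 0.56 and -0.93 ± 0.38 (SD, n = 5 each), a difference of -0.60 with overlapping groups (exact permutation p = 0.0794, adjusted 0.238). Without nc3 the difference of *BMI1* to *PCGF6* was -0.78 (exact permutation p = 0.0317), and without ko3 it was -0.74 (exact permutation p = 0.0476). No pair passed in all embryos, and the smallest p that 5 embryos against 5 allow is 0.00794.

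Further ratios were picked after the values were seen and are given without a test. The log2 ratio of *JARID2* to *EZH2* was 1.05, 1.37, 1.06, 0.59 and 0.57 in WT and -0.046, -0.015, 0.26, -0.072 and 0.17 in *SOX2* KO embryos. Relative to *EZH2*, *JARID2* was thus lower in every *SOX2* KO embryo than in any WT embryo, with the size factor all but cancelled. As *JARID2* alone already separated the groups and *EZH2* hardly differed between them, this ratio is no separate result. The log2 ratio of *SUZ12* to *EED* was 0.73 ± 0.27 in WT and 0.29 ± 0.13 in *SOX2* KO embryos (SD, n = 5 each), with overlapping groups.

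**Figure D3:**
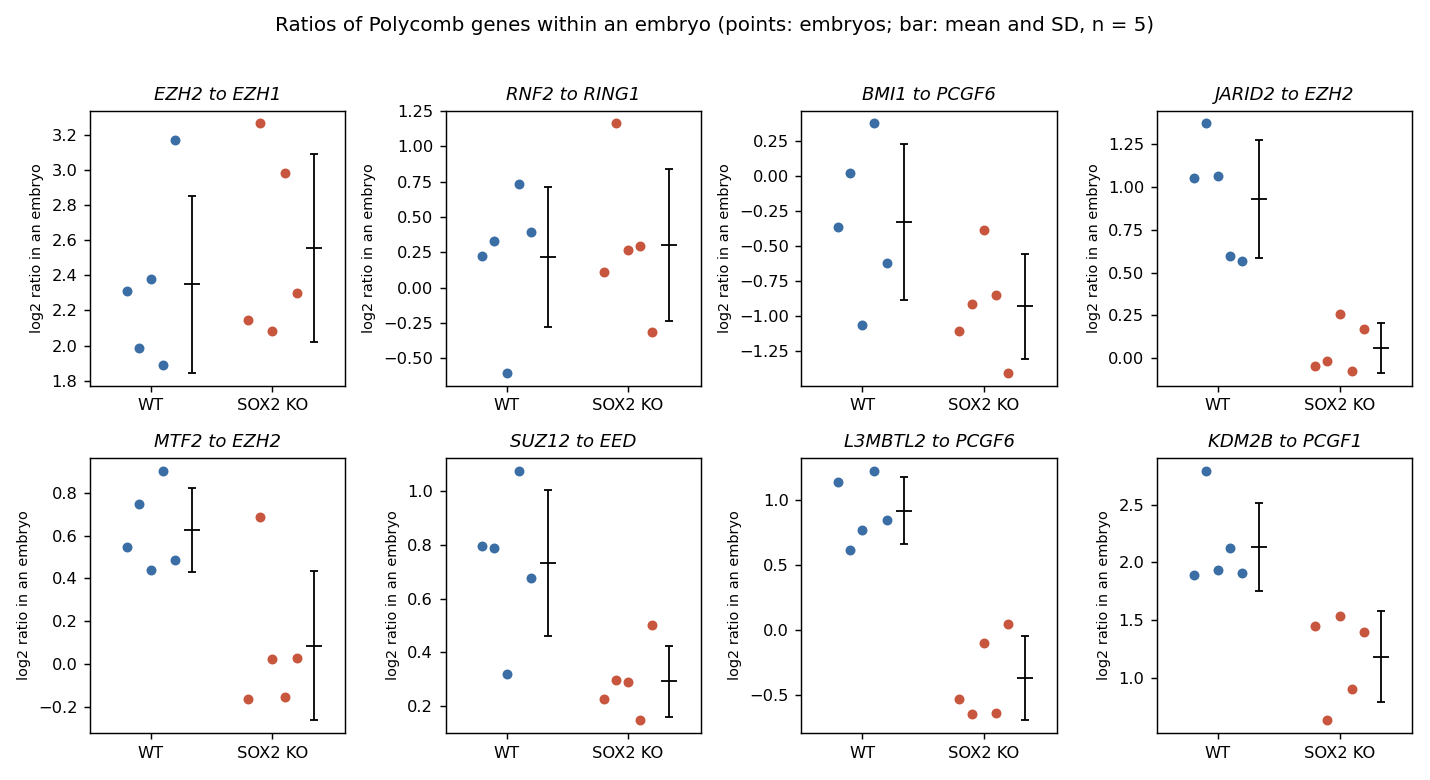
Log2 ratio of 2 genes within an embryo (vertical axes, not from 0) in 5 WT (blue) and 5 SOX2 KO (red) embryos, with mean and SD as black bars. The first 3 panels are the tested pairs, whose groups overlap, and the others were chosen after the values were seen. In JARID2 to EZH2, L3MBTL2 to PCGF6 and KDM2B to PCGF1 every SOX2 KO embryo lies below every WT embryo. The same holds for the first gene of each on its own.

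The other Polycomb subunits were taken from a list of 43 genes, of which 42 were in the table and all 42 were tested. That list was written with earlier results of these data known, so its counts are not independent of them. At the adjusted p, 7 of the 42 fell and 1 rose, beside 3.2% and 10.4% of all tested genes, and their median log2 fold change was -0.26. DESeq2 and edgeR each put 8 lower and 1 higher, and scaling by genes with a mean of at least 100 put 5 lower and 3 higher. With the *RN18S1* covariate 1 was lower and 0 were higher. Without nc3 the counts were 8 lower and 6 higher, and without ko5 they were 5 and 0. The genes that fell all belonged to the 16 with a mean of at least 100, where 7 of 16 (43.8%) fell against 8.16% of all genes of that level. In this fit all 16 of these genes had a negative log2 fold change, as had 2821 of the 4548 genes of that level. The level is the mean over both groups, so a gene can reach it through its WT embryos alone. Among those that fell, *L3MBTL2* and *BCOR* did so, with means of 199 and 148 in WT against 76.7 and 88.9 in *SOX2* KO embryos. The level of all genes was set in the same way. Among the 26 less expressed subunits 17 (65.4%) were positive and 9 negative. Of all genes averaging 10 to under 100, 52.8% were positive, and of those averaging under 10, 83.7%. Called at both thresholds were *L3MBTL2*, lower, and *FBRSL1*, higher.

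Variant PRC1 complexes hold RYBP or YAF2 in place of a CBX reader. Of their 18 tested genes 5 fell (27.8%) and 1 rose at the adjusted p, beside 3.2% and 10.4% of all tested genes. Among the PRC2 accessory genes other than *JARID2*, 2 of 7 fell (28.6%). The genes that fell all had a mean of at least 100, a level at which 8.16% of all genes fell. *L3MBTL2*, a subunit of the complex built on PCGF6, had 211, 153, 194, 220 and 215 in WT and 76.8, 62.1, 77.9, 60.8 and 106 in *SOX2* KO embryos. The groups did not overlap, and the mean of *SOX2* KO embryos was 38.6% of the WT mean (log2 fold change -1.38, standard error 0.19, limma adjusted p = 0.000163). It was the only gene of the Polycomb, antagonist and target lists that passed with the *RN18S1* covariate (limma adjusted p = 0.000512).

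*MGA*, the DNA-binding scaffold of the same complex, went from 550 ± 38.0 to 345 ± 50.8 (SD, n = 5 each), with no overlap (log2 fold change -0.68, limma adjusted p = 0.00606). The other genes of this complex did not pass. *E2F6*, *TFDP1* and *MAX*, its further DNA-binding partners, had 0.022, 0.013 and 0.15 as log2 fold changes (adjusted p of 0.964, 0.983 and 0.607 by limma). The log2 ratio of *L3MBTL2* to *PCGF6*, chosen after its values were seen, was 0.62 to 1.23 in WT embryos against -0.65 to 0.047 in *SOX2* KO embryos. *L3MBTL2* alone already separated the groups, so this ratio is no separate result.

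*KDM2B*, which binds unmethylated CpG islands for the complex built on PCGF1, had 258, 335, 193, 263 and 218 in WT and 150, 111, 167, 105 and 135 in *SOX2* KO embryos. The groups did not overlap, and the mean was 52.8% of the WT mean (log2 fold change -0.91, standard error 0.18, limma adjusted p = 0.00394, and 0.0505 with the *RN18S1* covariate). Its partners *BCOR* and *SKP1* fell as well, with means of 60.2% and 59.2% of WT and -0.77 and -0.80 as log2 fold changes (adjusted p of 0.0198 and 0.00938 by limma). In both, 1 *SOX2* KO embryo reached the WT range, ko2 with 123 for *BCOR* and ko4 with 1496 for *SKP1*. *BCOR* lost the adjusted p without nc2 (0.0501) and without ko1 (0.0608). On the same list of variant PRC1 genes, *BCORL1* and *USP7* did not pass. Their log2 fold changes were 0.61 and -0.25 (adjusted p of 0.111 and 0.223 by limma). *PCGF1* itself ranged from 47.5 to 68.7 in WT embryos against 50.7 to 71.3 in *SOX2* KO embryos (log2 fold change 0.035, 95% interval -0.40 to 0.47, limma adjusted p = 0.926). *SKP1* also serves other ubiquitin ligases, and *BCOR* is also a corepressor outside Polycomb.

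*RYBP*, shared by the variant complexes, had 296, 326, 394, 316 and 345 in WT and 190, 199, 233, 415 and 208 in *SOX2* KO embryos. Embryo ko4 alone exceeded the WT range, while the other *SOX2* KO embryos were below it (log2 fold change -0.49, limma adjusted p = 0.0860, and 0.00460 without ko4). *FBRSL1*, an AUTS2-related gene of the complexes built on PCGF3 and PCGF5, rose from 28.4 ± 8.54 to 58.2 ± 14.4 (SD, n = 5 each), with no overlap (log2 fold change 1.02, limma adjusted p = 0.0179). It lost the adjusted p without ko1 (0.0564) and without ko5 (0.0625).

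**Figure D4:**
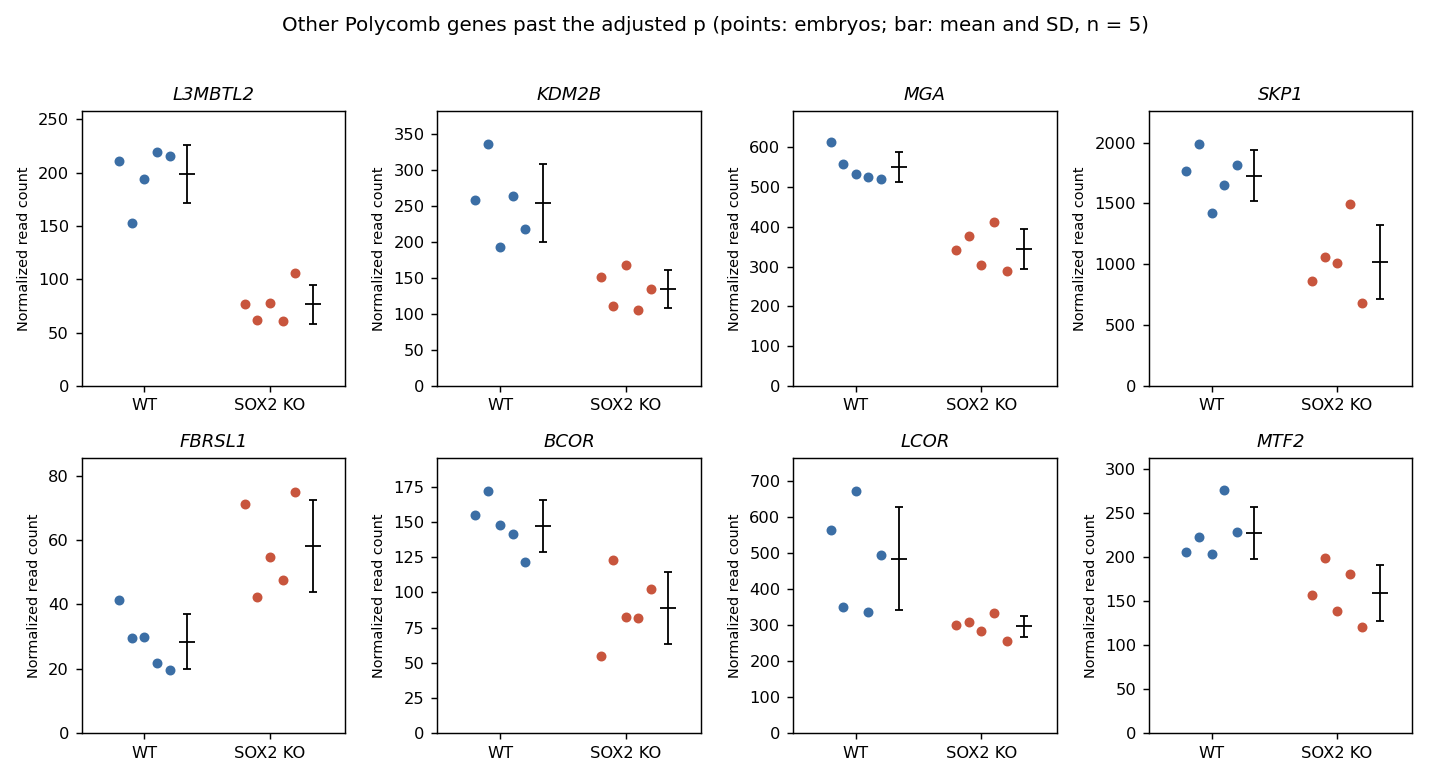
Normalized read counts (vertical axes, each from 0) of the 8 other Polycomb genes past the adjusted p in 5 WT (blue) and 5 SOX2 KO (red) embryos, with mean and SD as black bars. In 7 panels the SOX2 KO mean is lower and in that of FBRSL1 higher, and the groups overlap for BCOR and SKP1.

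Among the 7 tested accessory genes of PRC2 other than *JARID2*, *LCOR* and *MTF2* fell. *MTF2*, a Polycomb-like protein that guides PRC2 to CpG islands, had 205, 222, 203, 276 and 228 in WT and 157, 198, 138, 181 and 120 in *SOX2* KO embryos. The groups did not overlap, with a log2 fold change of -0.53 ± 0.17 (standard error) and a limma adjusted p of 0.0456. It passed in 3 of 10 fits with an embryo left out, with adjusted p of up to 0.130. *LCOR*, a gene that encodes a nuclear receptor corepressor and, in a longer form, a PRC2 partner, went from 484 ± 143 to 296 ± 29.2 (SD, n = 5 each, log2 fold change -0.66, limma adjusted p = 0.0226). The counts per gene do not tell these forms apart. It passed in 7 of 10 fits with an embryo left out. *AEBP2*, the partner found with *JARID2* in the same form of PRC2, had a log2 fold change of -0.18 (95% interval -0.59 to 0.23, limma adjusted p = 0.542), and the histone-binding core genes *RBBP4* and *RBBP7* had -0.31 and -0.29 (limma adjusted p = 0.302 and 0.285). *RBBP4* and *RBBP7* are close paralogs whose reads the counting could have shared.

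The remaining PCGF, CBX and PHC genes described here did not pass. *PCGF2*, the closest relative of *BMI1*, had 13.9 ± 8.69 in WT and 25.3 ± 9.12 in *SOX2* KO embryos (SD, n = 5 each, log2 fold change 0.91, limma adjusted p = 0.112), with overlapping groups. *CBX2*, like *CBX7* a reader of methylated lysine 27, had 39.5 ± 14.4 and 22.5 ± 8.43 (SD, n = 5 each, log2 fold change -0.82, limma adjusted p = 0.108). *CBX6* and *CBX8* had 0.34 and -0.15 as log2 fold changes, with a 95% interval as wide as -1.06 to 0.75 for *CBX8* (adjusted p of 0.596 and 0.840 by limma). *PHC1*, which links PRC1 complexes to each other, went from 97.1 ± 19.2 to 68.0 ± 7.77 (SD, n = 5 each) with no overlap and a limma adjusted p of 0.0860. Its paralog *PHC2* had 38.5 ± 7.71 and 59.3 ± 3.26 (SD, n = 5 each), also with no overlap and in the other direction (log2 fold change 0.63, limma adjusted p = 0.0609).

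**Figure D5:**
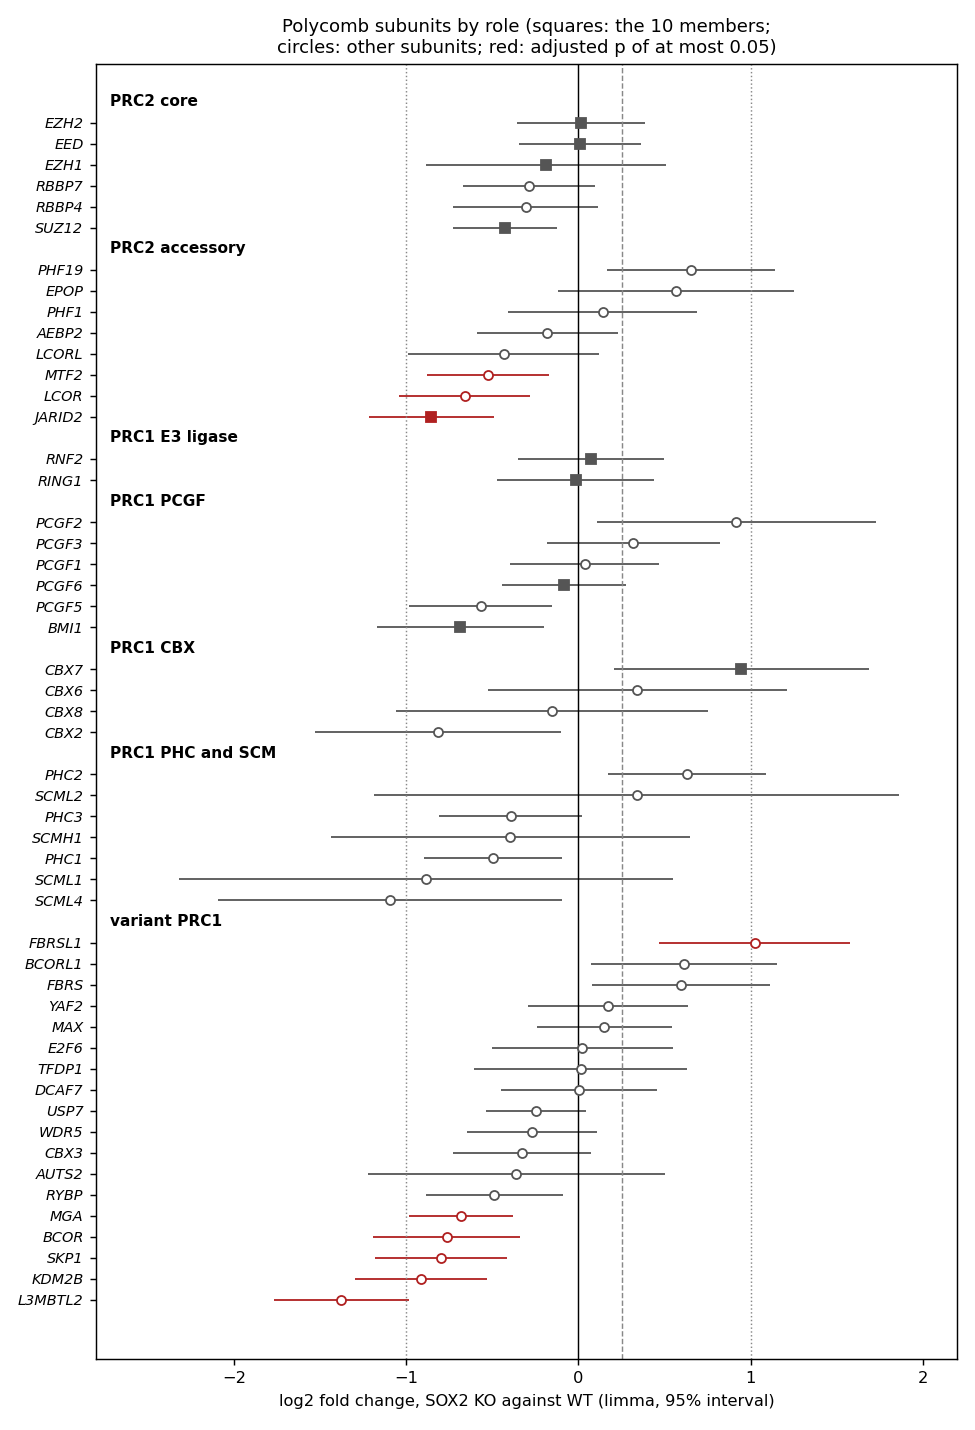
Log2 fold change (horizontal axis) of SOX2 KO against WT with its 95% limma interval for the 10 genes (squares) and other subunits of the list (circles), grouped by role, with genes past an adjusted p of 0.05 in red. The dashed line is the median of all tested genes at 0.25, the dotted lines mark a 2-fold change, and the red symbols lie on the left except that of FBRSL1.

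Genes of enzymes that remove the histone marks of Polycomb, and of their partners, were listed as antagonists and read from the same fit. Of 14 tested, which are subunits of the H2A deubiquitinase around BAP1, *USP16* and the demethylases of lysine 27, 0 passed with limma and 4 (28.6%) had an unadjusted p under 0.05, beside 32.4% of all tested genes. DESeq2 and edgeR each put 1 past the adjusted p, *USP16*, with 250 ± 37.6 in WT and 184 ± 19.7 in *SOX2* KO embryos (SD, n = 5 each, limma adjusted p = 0.0682). *BAP1* had a log2 fold change of 0.048 (95% interval -0.31 to 0.41, limma adjusted p = 0.877). The demethylase genes *KDM6A* and *KDM6B* had -0.59 and 0.34 as log2 fold changes (adjusted p of 0.0901 and 0.266 by limma).

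Classical targets of Polycomb repression had few reads. Of the *HOX* genes, 24 were in the table, with means from 1.88 to 21.5. None passed with limma, DESeq2 or edgeR, and 2 had an unadjusted p under 0.05 with limma. Of the 16 with a mean under 10, 13 (81.2%) had a positive log2 fold change, beside 83.7% of all genes of that level, and their median was 0.75, beside 0.93. Of the 8 with a mean of at least 10, 7 (87.5%) were positive, beside 52.8% of all genes averaging 10 to under 100. Their median was 0.37, beside 0.037. These 8 averaged 11.1 to 21.5, low in that band, whose median level was 37.0, so the shares are not matched for level. With quantile normalization the median log2 fold change of all 26 classical targets tested was -0.11 in place of 0.65. That of all tested genes was -0.022 in place of 0.25. *CDKN2A*, the cell cycle inhibitor gene at the INK4 locus, had 0 to 2 reads per WT embryo against 0 to 5 per *SOX2* KO embryo.

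The genes most alike in pattern were sought among those with a mean of at least 100, by the root mean square difference of centred log2 values over the 10 embryos. Closest to *JARID2* were *USP6NL* (0.16), *F11R* (0.19) and *SAFB2* (0.20), where the value of *JARID2* around its own mean is 0.49. Closest to *EZH2* were *MED13L*, *DCUN1D1* and *RNF19A* (0.14 each), and to *RNF2* were *USO1* (0.13), *MRPL19* and *ISCU* (0.15 each).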

How the data were processed

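Single bovine early blastocysts, 5 WT and 5 *SOX2* KO, were profiled by Smart-seq2. The authors deposited a normalized signal, the reads per gene divided by an embryo's DESeq2 size factor, after trimming (Trimmomatic), mapping (Hisat2, ARS-UCD1.2) and counting (featureCounts). Annotation release, strand setting and treatment of multi-mapping reads are not given in the sources used here. Dividing by the smallest step in each embryo turned all 201120 values (100%) into whole reads within 0.001, and these recovered reads entered the count tests. Precision is at best that of the reads, which carry no molecular identifiers. Samples were assigned by title and columns by group, since the numbers ko1 to ko5 differ from those of the labels. The p-values set a difference between groups against the spread between these embryos.

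limma 3.58.1 (lmFit, eBayes with trend) was fitted in R 4.3.3 on log2(value + 1) over genes with a mean of at least 1. DESeq2 1.42.0 and edgeR 4.0.16 (quasi-likelihood) on recovered reads, other scalings and sample weights, pseudocounts of 0.1 and 5, a stricter and no filter, an *RN18S1* covariate and leaving out each embryo were alternatives. Ratios were tested by exact permutation in Python 3.11.15 with scipy 1.17.1. The fits were tried on simulated data with changes larger than those of the Polycomb genes here, so that trial does not cover changes of this size. The members and lists were chosen with earlier results of these data known. Named were the 10 members, *SOX2*, every gene of the lists past the adjusted p, a fixed set of other subunits, and the 3 genes most alike in pattern to *EZH2*, *RNF2* and members past the adjusted p. *BCORL1*, *USP7*, *E2F6*, *TFDP1*, *MAX*, *USP16*, *PHC2* and *PCGF5* were named after their values were seen. The values of 1 fixed gene are not reported here. No coordinates, lengths or sequences were used, because the gene table at hand describes another assembly.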

Additional observations from a re-analysis of the deposited data

Results flagged for a closer look

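Across 74 groups of 5 embryos, 4 held a single embryo set far apart, where chance gives about 3.7. The WT embryo nc3 had 97.4 normalized read counts of *RING1*, against 66.0 to 74.4 in the rest of its group, and 202 of *BAP1*, against 119 to 142. The *SOX2* KO embryo ko4 had 394 normalized read counts of *AEBP2*, against 172 to 221 in the rest of its group, and 415 of *RYBP*, against 190 to 233.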

How the results depend on the processing

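The number of the 10 genes past both thresholds was 0, and 1 with the adjusted p alone; leaving out 1 embryo gave 0 to 1. The number past the adjusted p was 1, and it was 3 with equal totals, DESeq2 or edgeR, 4 with sample weights, 0 with the *RN18S1* covariate and 1 to 4 with 1 embryo left out. The share of all tested genes past it was 13.6%, and 13.2% with equal totals, 14.4% with DESeq2, 13.9% with edgeR, 24.4% with sample weights, 1.26% with the covariate and 6.14% to 22.5% with 1 embryo left out. Of the other Polycomb, antagonist and target genes, 2 were called, with 1 at a pseudocount of 5 or with the covariate, 6 with sample weights, 8 by the adjusted p alone and 1 to 4 with 1 embryo left out, where nc4, nc5, ko1 and ko5 each gave 1 and nc3 gave 4. The adjusted p alone was passed by 8 of them, by 18 with sample weights, by 1 with the covariate and by 5 (without ko5) to 15 (without nc3) with 1 embryo left out. The median log2 fold change of the 10 genes, -0.050, moved to -0.17 with equal totals, 0.051 when scaled by genes with a mean of at least 100, -0.16 with the covariate, -0.12 with edgeR and between -0.098 and 0.035 with 1 embryo left out. Equal totals moved the median of all genes by -0.11 and quantile normalization by -0.27, with 58.5% of calls higher in place of 88.5%. Signs turned only for genes that did not pass. With equal totals, sample weights and edgeR, *EZH2* had -0.11, -0.055 and -0.033, *EED* -0.11, -0.043 and -0.057, and *PCGF1* -0.086, -0.033 and -0.059. *RNF2* had -0.051 with equal totals and -0.018 with edgeR. *BAP1* had -0.075 with equal totals, -0.050 with edgeR and -0.12 with the covariate. *RING1* had 0.0017 with equal totals without *RN18S1*, 0.084 when scaled by well expressed genes, 0.0043 with quantile normalization, 0.078 with sample weights and 0.012 with DESeq2, and *PCGF6* had 0.018 when scaled by well expressed genes. With the covariate, *RBBP4*, *AEBP2* and *KDM6B* had 0.071, 0.035 and -0.081, and with quantile normalization *CBX6* and *CDKN2A* had -0.13 and -0.16. With 1 embryo left out, the ranges were -0.36 to 0.052 for *EZH1*, -0.096 to 0.097 for *EZH2*, -0.083 to 0.086 for *EED*, -0.10 to 0.15 for *RING1*, -0.035 to 0.18 for *RNF2*, -0.041 to 0.11 for *PCGF1*, -0.32 to 0.084 for *CBX8* and -0.016 to 0.17 for *BAP1*. The ratio of *RNF2* to *RING1* ranged from -0.13 to 0.24, and that of *BMI1* to *PCGF6* from -0.78 to -0.42. The causes were not tested.

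No paired analysis was possible because *SOX2* KO columns could not be matched to the numbers in the labels, so a fit with a replicate block was not run.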
